A study of Homo sapiens with 8 samples.

Results

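The members are the entries for microRNAs of 2 pluripotency clusters, that of miR-302 with miR-367 and that of miR-371, miR-372 and miR-373, chosen by name from a table of small RNA counts, which gave 8 of its 2867 entries. They are miR-302a-5p, miR-302b-3p, miR-302c-5p and miR-302d-3p from chromosome 4, and miR-371a-5p, miR-371b-3p, miR-372-3p and miR-373-3p from chromosome 19. The RNA came from HEK293, an established human embryonic kidney cell line, in 4 libraries from cells transfected with 100 nM of an ASO (antisense oligonucleotide, a short synthetic strand made to pair with a given RNA), and in 4 control libraries from cells given no ASO, all harvested at 48 hours. Per the library names the ASO was aimed at miR-31, and the comparison asks whether small RNAs beyond that target moved. No group received an unrelated ASO, so an effect of this ASO and an effect of any ASO cannot be told apart, and the titles do not say whether the controls were mock-transfected.

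Each microRNA is cut from a hairpin, whose arms give a 5p and a 3p strand, and bases 2 to 8 of the strand, the seed, do most of the pairing with target messenger RNAs. The miR-302 cluster is made from 1 primary transcript that OCT4 and SOX2 switch on in human pluripotent stem cells, and the miR-371 to miR-373 cluster is active in the same cells and in germ cell tumours. The miR-302 3p strands, miR-372-3p and miR-373-3p repress brakes on the cell cycle such as CDKN1A and LATS2, and the miR-302 cluster can help to reprogram somatic cells. HEK293 is not a pluripotent line.

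The mature sequences show which members can share targets. In the 4 sequences that follow, from RefSeq (GRCh38.p14), capitals mark the seed, which is the same in all 4 of these members and is the pluripotency seed of both clusters.
miR-302b-3p: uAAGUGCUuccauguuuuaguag
miR-302d-3p: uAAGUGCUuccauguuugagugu
miR-372-3p: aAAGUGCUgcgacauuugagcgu
miR-373-3p: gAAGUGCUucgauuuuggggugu
The other 4 members each carry a seed of their own, shown here because their values cannot be read as values of that seed family.
miR-302a-5p: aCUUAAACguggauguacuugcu
miR-302c-5p: uUUAACAUggggguaccugcug
miR-371a-5p: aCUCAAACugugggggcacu
miR-371b-3p: aAGUGCCCccacaguuugagugc

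Each of the 8 members came from a different hairpin, so no hairpin had both arms compared. RefSeq lists 20 mature sequences from 11 hairpins under the names used to choose members, and the 12 others, both miR-367 arms and the 3p arms of miR-302a and miR-302c among them, are not analysed here. The 3p arms of miR-302a and miR-302b share their first 18 bases and every other pair of miR-302a to miR-302d 3p arms shares its first 17, which matters for short reads because they can be told apart only by their last bases. The 2 arms without values read as follows, with the seed in capitals.
miR-302a-3p: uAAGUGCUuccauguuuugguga
miR-302c-3p: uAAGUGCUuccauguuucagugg
The deposited table gave miR-302b-3p a length of 21 bases, against 23 in RefSeq, so the length listed for it holds only 3 bases beyond the stretch shared with miR-302a-3p. Listed lengths were 22 against 23 for miR-302a-5p, 21 against 22 for miR-302c-5p and 21 against 20 for miR-371a-5p, and equal to RefSeq for the other 4 members. How reads that fit more than 1 arm were assigned is not given in the sources used here, so the split between miR-302b-3p and miR-302d-3p is uncertain. Whether counts of these 2 entries include reads of miR-302a-3p or miR-302c-3p cannot be told either.

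On chromosome 4, the 5 hairpins of the miR-302 and miR-367 cluster span 684 bases (112647874 to 112648557, GRCh38), on the minus strand. All 5 lie inside introns of LARP7, a protein-coding gene on the opposite strand, and inside a noncoding gene on their own strand, of which the MIR302B hairpin overlaps an exon. On chromosome 19, the 4 hairpins of the miR-371 to miR-373 cluster span 1099 bases (53787675 to 53788773). MIR371A, MIR372 and MIR373 are on the plus strand, and MIR371B is on the minus strand over MIR371A. All 20 bases of miR-371a-5p (53787680 to 53787699) are complementary to part of miR-371b-3p (53787678 to 53787700), so a read from this spot is given to one or the other by its strand alone.

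Library totals ran from 8168828 to 11677123 counts, and the 8 members together took 0.00697% to 0.00957% of them. Levels below are TMM-normalized CPM (each count scaled to the total of the tested entries, after TMM scaling for library composition), given as mean ± SD over n = 4 libraries a group. The target, miR-31-5p, had a mean of 837 ± 166 CPM in ASO libraries and of 736 ± 305 CPM in control libraries (log2 change of 0.19, SE 0.33, adjusted p = 0.851 in edgeR's quasi-likelihood test), so it gave no check of the labels. Among marker lists, the HOX-linked microRNAs miR-10a, miR-10b, miR-196a and miR-196b summed to 55771 to 63612 CPM with ASO and 58468 to 83038 CPM in controls. The liver marker miR-122-5p, the 1 entry of its list, was at 24.9 to 40.6 CPM in ASO libraries and at 10.1 to 14.9 CPM in control libraries, without overlap, and its part in the values below was not tested. The blood marker miR-142-3p was at 0 in every ASO library and at most at 0.397 CPM in a control. The labels name no separate cultures, so the p-values reflect the spread among these libraries only, and that spread may be technical.

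The detected members of the clusters stood at ranks 226 to 857 of the known microRNAs. Averaged over all 8 libraries, miR-302a-5p stood at 39.3 CPM and rank 226 of 903 known microRNAs, and miR-302b-3p at 33.4 CPM and rank 234. miR-302d-3p stood at 6.46 CPM and rank 357, and miR-372-3p at 2.66 CPM, rank 452, which is the median of the 903. miR-302c-5p followed at 0.979 CPM (rank 562). The most abundant entry, miR-21-5p, averaged 74372 CPM. Adapter ligation favours some sequences over others, so the order between microRNAs may differ from that in the cells.

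**Figure D1:**
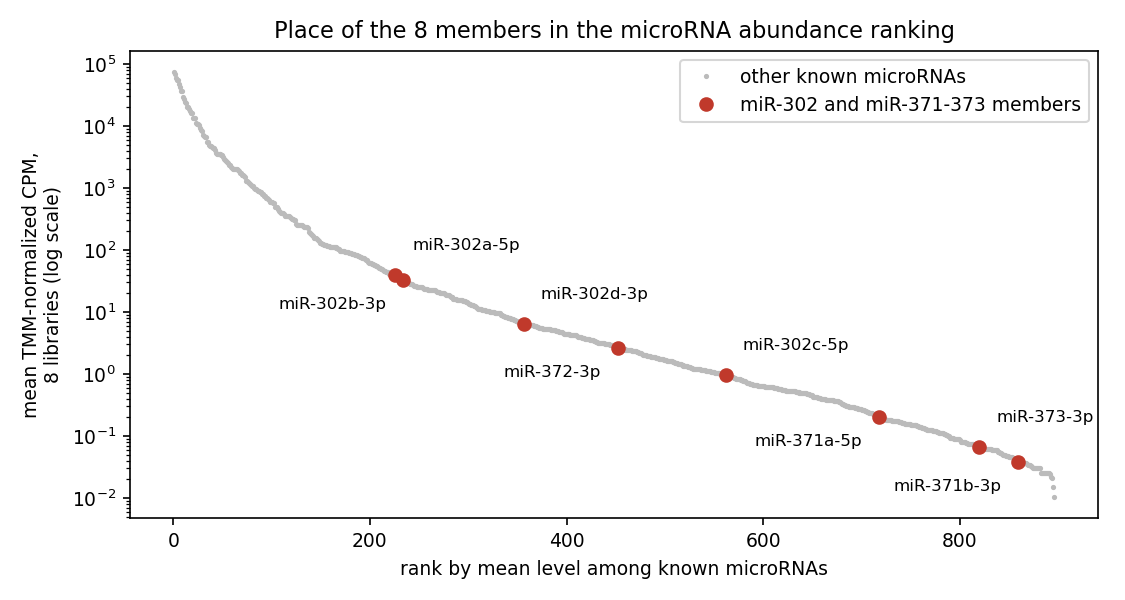
Mean TMM-normalized CPM over the 8 libraries (log scale) against rank for known microRNAs above 0, with the 8 members as red points. miR-302a-5p (rank 226) and miR-302b-3p (rank 234) sit side by side, and miR-371a-5p, miR-373-3p and miR-371b-3p lie at the low end.

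In that order some neighbours could not be separated. miR-302a-5p was above miR-302b-3p in 6 of 8 libraries, and their ranges overlapped. miR-302b-3p was above miR-302d-3p in 8 of 8 libraries, with a mean 5.18 times as high and no overlap. miR-302d-3p was above miR-372-3p in 8 of 8 libraries, with a mean 2.43 times as high. The ranges of miR-372-3p and miR-302c-5p overlapped, as did those of all lower neighbours. The entries miR-302b-3p and miR-302d-3p, for strands from a single primary transcript, differed in level by more than the spread between libraries. Because the assignment of reads among the miR-302 3p arms is not known, the levels of the strands themselves may differ otherwise.

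The ASO comparison gave no member past the threshold of 0.05 on the adjusted p. Of the 8 members, 5 passed the filter on low counts and were tested, and 0 of these passed in edgeR's quasi-likelihood test, where 0.134% of all 745 entries tested passed. The lowest p-values belonged to the 2 most abundant members, miR-302b-3p and miR-302a-5p, which were lower with ASO and had unadjusted p under 0.05, as did 10.5% of all entries, and 6.04% in the same direction. DESeq2 called 1 member, miR-302b-3p, among the 5.45% of entries it called (23 of the 422 that it gave an adjusted p).

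miR-302b-3p carries the pluripotency seed. Its level was 30.2, 27.7, 27.3 and 32.1 CPM in ASO libraries 1 to 4. In control libraries 1 to 4 the level was 36.9, 40.0, 34.7 and 38.7 CPM. The counts behind these values ran from 294 to 330 in ASO libraries and from 288 to 438 in control libraries. Every ASO library was below every control, the highest with ASO at 32.1 CPM and the lowest control at 34.7 CPM. Groups did not overlap in 8.32% of all entries tested, and with the ASO libraries lower in 5.23%.

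The mean of miR-302b-3p was 29.3 ± 2.24 CPM in ASO libraries and 37.6 ± 2.28 CPM in control libraries. edgeR fitted a log2 fold change of −0.36, with an SE of 0.09, a 95% interval of −0.57 to −0.15 and an adjusted p of 0.353. As a fold this is 0.780 (0.675 to 0.900). Of the 745 entries, 8 had a smaller p and 278 a larger change in size. An exact two-sided permutation test of the log2 levels gave p = 0.0286, the smallest that 4 against 4 libraries allow. DESeq2 gave a log2 fold change of −0.37 (SE 0.09) with an adjusted p of 0.00381.

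The scatter of miR-302b-3p within groups was close to that of counting alone. Its coefficient of variation was 7.66% with ASO and 6.07% in controls, where counting error by itself would give 5.65% and 5.21%. In ASO library 3, the lowest, counting error alone gave a Wilson 95% interval of 24.3 to 30.4 CPM (not TMM-scaled). In control library 3, the lowest control, the interval was 31.4 to 39.6 CPM. ASO library 4, the highest with ASO, had one of 29.4 to 36.5 CPM, which overlaps that of control library 3. These intervals do not cover other error, because PCR copies of a molecule are counted as separate reads.

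miR-302a-5p is the opposite strand to the seed-bearing arm of its hairpin and has another seed. Its level was 35.2, 31.7, 35.6 and 30.6 CPM in ASO libraries 1 to 4 (counts of 343, 375, 396 and 315). In control libraries 1 to 4 the level was 52.2, 48.1, 46.4 and 34.4 CPM (counts of 526, 450, 385 and 390). Control library 4 lay among the ASO libraries, and the other 3 controls lay above all of them. The groups therefore overlapped through 1 library.

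The mean of miR-302a-5p was 33.3 ± 2.51 CPM in ASO libraries and 45.3 ± 7.64 CPM in control libraries. edgeR fitted a log2 fold change of −0.44, with an SE of 0.14, a 95% interval of −0.77 to −0.12 and an adjusted p of 0.402. As a fold this is 0.735 (0.587 to 0.919). The exact two-sided permutation test gave p = 0.0857, and DESeq2 an adjusted p of 0.0730. Without control library 4 the log2 fold change was −0.56 (adjusted p = 0.0918), and without control library 1, the highest, it was −0.35. The coefficient of variation in controls was 16.9%, where counting alone would give 4.78%, and with ASO it was 7.54%, where counting alone would give 5.29%.

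**Figure D2:**
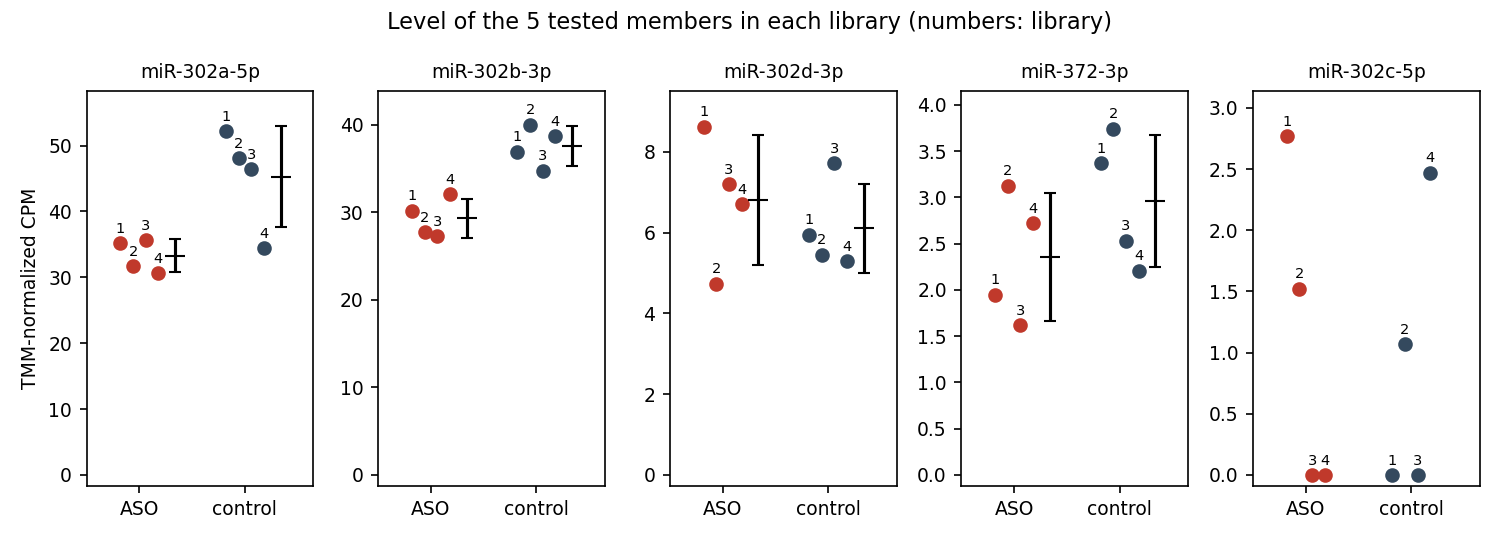
TMM-normalized CPM of each tested member in every library, ASO at the left and control at the right of each panel, with library numbers beside the points and mean ± SD (n = 4) as bars, left out for miR-302c-5p, which has libraries at 0. The groups are apart for miR-302b-3p, control library 4 joins the ASO libraries for miR-302a-5p, and the other panels overlap.

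Although both strands come from one cluster, miR-302a-5p and miR-302b-3p did not keep a fixed ratio. The ratio of miR-302a-5p to miR-302b-3p was 1.17, 1.14, 1.31 and 0.955 across ASO libraries 1 to 4. Across control libraries 1 to 4 it was 1.41, 1.20, 1.34 and 0.890. Library 4 of each group had the lowest ratio, and the groups overlapped, with means of 1.14 ± 0.145 with ASO and 1.21 ± 0.231 in controls. The ratio of miR-302b-3p to miR-302d-3p averaged 4.48 ± 1.07 with ASO and 6.33 ± 1.33 in controls, also with overlap.

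miR-302d-3p shares the seed of miR-302b-3p. Its level was 8.62, 4.73, 7.20 and 6.70 CPM in ASO libraries 1 to 4 (counts of 84, 56, 80 and 69). In control libraries 1 to 4 the level was 5.95, 5.45, 7.72 and 5.30 CPM (counts of 60, 51, 64 and 60). The groups overlapped, and the lowest of all 8 values was in ASO library 2. The mean was 6.81 ± 1.61 CPM in ASO libraries and 6.10 ± 1.11 CPM in control libraries (log2 change of 0.16, SE 0.22, adjusted p = 0.824, exact permutation p = 0.514). Its fold of 1.12 had an interval of 0.779 to 1.60, which holds no change and, only at its lower edge, the 0.780 of miR-302b-3p. Whether the changes of these 2 members differ was not tested.

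miR-372-3p, which carries the same seed from the chromosome 19 cluster and represses LATS2, was a minor species. Its level was 1.95, 3.13, 1.62 and 2.72 CPM in ASO libraries 1 to 4 (counts of 19, 37, 18 and 28). In control libraries 1 to 4 the level was 3.37, 3.74, 2.53 and 2.21 CPM (counts of 34, 35, 21 and 25). The groups overlapped, with the lowest values in ASO libraries 1 and 3. The mean was 2.35 ± 0.691 CPM in ASO libraries and 2.96 ± 0.715 CPM in control libraries (log2 change of −0.33, SE 0.30, adjusted p = 0.698, exact permutation p = 0.257). The fold of 0.796 had an interval of 0.488 to 1.30, which covers both no change and the fold of miR-302b-3p.

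miR-302c-5p passed the filter narrowly, with a mean count of 10.4 against a minimum of 10. Its counts were 27, 18, 0 and 0 in ASO libraries 1 to 4, against 0, 10, 0 and 28 in control libraries 1 to 4. This microRNA was thus above 0 in 2 libraries of each group, at 1.07 to 2.77 CPM. If it is a sampling zero, a count of 0 allows up to 3 counts. In the 4 libraries at 0, that limit is 0.269 to 0.367 CPM (not TMM-scaled). On that reading presence and absence differed within each group by more than counting error. Counts of 1 were rare, in 2 to 10 of the 1099 to 1317 entries above 0 in each library. Whether low counts had been removed was not tested. Of the 745 entries tested, 195 (26.2%) were at 0 in at least 1 library and 33 were at 0 in exactly 4. The log2 fold change was 0.25 (SE 1.78, adjusted p = 0.972), with an interval of −3.90 to 4.40.

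**Figure D3:**
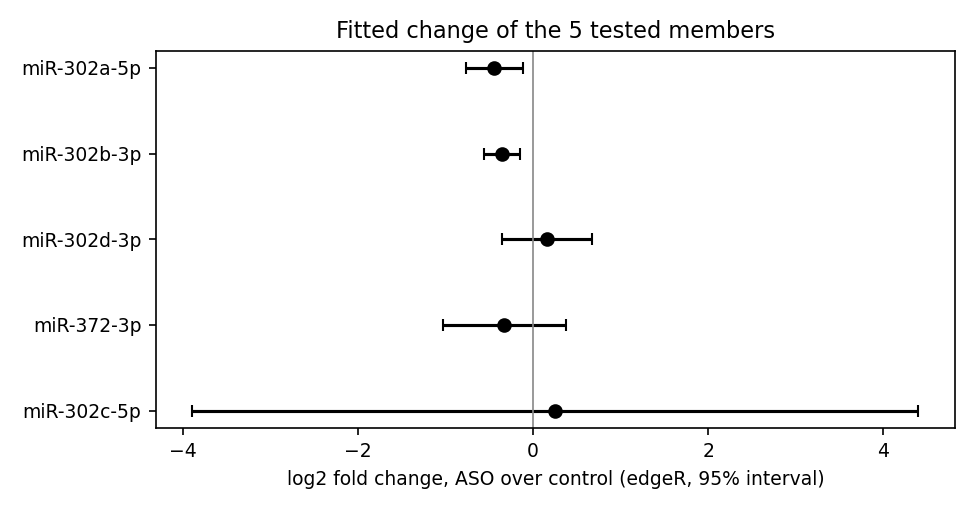
Log2 fold change of each tested member, ASO over control, from edgeR with its 95% interval. The intervals of miR-302a-5p (−0.77 to −0.12) and miR-302b-3p (−0.57 to −0.15) lie below 0, the others cross it, and none of the 5 passed after adjustment over all 745 entries.

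The remaining 3 members, all from chromosome 19, did not pass the filter and were near the detection limit. miR-371a-5p had 3 counts in ASO library 4 and 11 counts in control library 3, and 0 in the other 6 libraries. miR-373-3p, which shares the pluripotency seed, had 6 counts in ASO library 3 and 0 elsewhere. miR-371b-3p had 3 counts in ASO library 1 and 0 elsewhere. Library 1 of the ASO group and library 3 of the controls also had 88 and 87 entries at a count of 2, where the other libraries had 3 to 8, though no member was at a count of 1 or 2. In the chromosome 19 cluster, miR-372-3p was the 1 member found in all 8 libraries.

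Summed over all 8 members, the level was 68.8 to 79.0 CPM with ASO and 83.1 to 98.4 CPM in controls, and miR-302a-5p and miR-302b-3p made up 82.7% to 90.5% of the members' counts in each library. The sum had a mean of 73.1 ± 4.28 CPM with ASO, against 93.1 ± 7.24 CPM in controls, and it describes these 2 members more than the clusters. The members of the miR-371 to miR-373 cluster alone summed to 2.64 ± 0.501 CPM with ASO and 3.30 ± 0.754 CPM in controls, with overlap. Among the 5 tested members 3 had a fold below 1 (48.3% of all entries did), and their median log2 fold change was −0.33, beside 0.01 over all entries tested. In RNA from whole cultures, fewer cells with a microRNA and less of it per cell cannot be told apart.

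Across the settings tried, miR-302b-3p kept its direction, with log2 fold changes of −0.41 to −0.33, and its adjusted p ran from 0.00381 in DESeq2 to 0.671 without ASO library 3. miR-302a-5p was between −0.56 and −0.35, and its adjusted p was never under 0.0730. The fit on known microRNAs alone gave adjusted p of 0.177 for miR-302b-3p and 0.271 for miR-302a-5p.

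**Figure D4:**
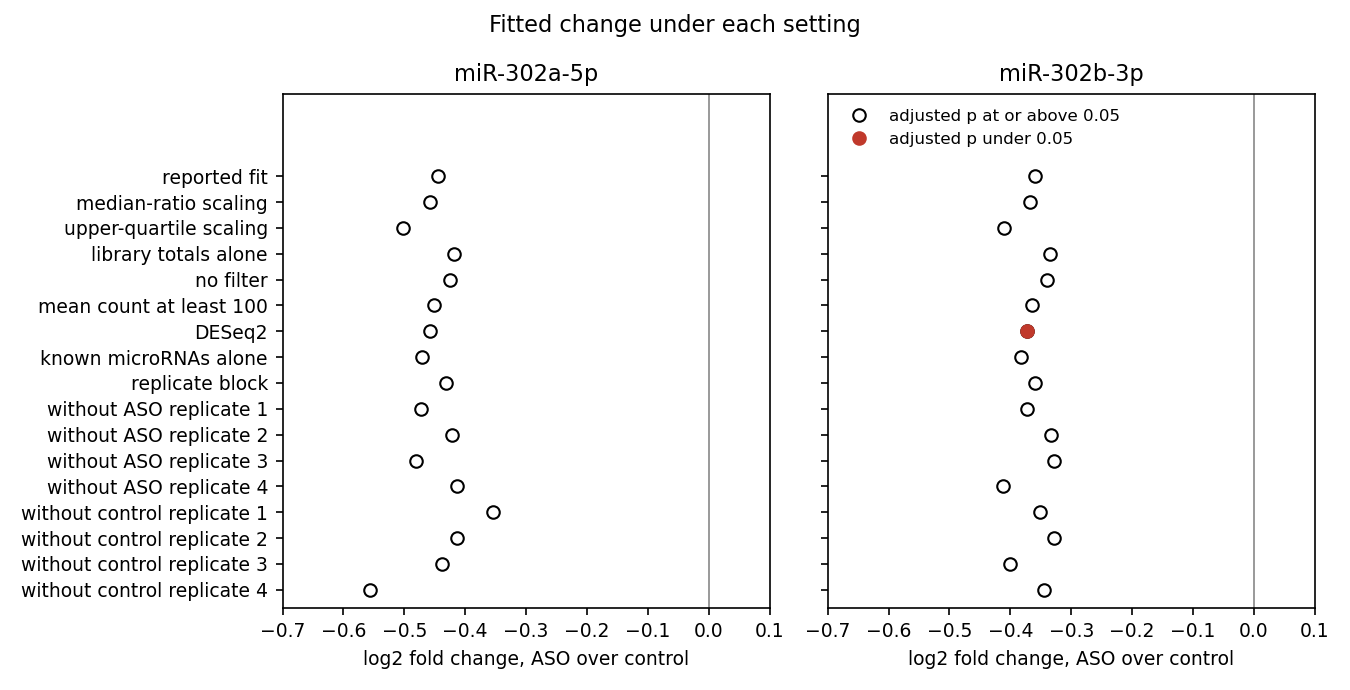
Log2 fold change of miR-302a-5p and miR-302b-3p, ASO over control, in the reported fit and under each other setting, with a filled point where the adjusted p was under 0.05. All points lie below 0, and DESeq2 for miR-302b-3p is the 1 filled point.

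Among the known entries matched to a sequence, the pluripotency seed was carried almost wholly by the members. That share follows in part from the choice of members by cluster name. Of 903 known entries 796 matched a RefSeq sequence by name, and 5 of these had the seed AAGUGCU, of which the 1 that is not a member, miR-520a-3p of the neighbouring placental cluster on chromosome 19, was above 0 in a single library with 2 counts. The 5 entries summed to 35.6 to 41.5 CPM with ASO and 45.2 to 49.2 CPM in controls, of which miR-302b-3p was the main part. The proliferation-linked miR-17 family has the seed shifted by 1 base, AAAGUGC, shown in its most abundant entry.
miR-93-5p: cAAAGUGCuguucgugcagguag
The 6 entries with this shifted seed summed to 12922 to 19090 CPM with ASO and 6650 to 14923 CPM in controls, far more than the unshifted seed, with groups that overlapped.

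The relatives in sequence, position and function gave no entry past the threshold in either direction in edgeR's test. The placental cluster on chromosome 19 had 10 entries, of which 2 were tested, and its most abundant tested entry, miR-516b-5p, had 1.004 ± 0.205 CPM in ASO libraries and 1.49 ± 0.694 CPM in control libraries (log2 change of −0.57, adjusted p = 0.637). Of the miR-17, miR-18, miR-20, miR-93 and miR-106 entries of either arm, 8 of 8 were tested. Of these, 6 had a fold above 1, and the median log2 fold change was 0.50. Those below 1 were miR-18a-5p (log2 change of −1.37) and miR-106b-3p (−0.15). The latter is an opposite arm, as is miR-18b-3p (0.70). The most abundant, miR-93-5p, had 8320 ± 1502 CPM in ASO libraries and 5720 ± 1770 CPM in control libraries (0.54, SE 0.25, adjusted p = 0.445). The hairpins of miR-25, miR-32, miR-92 and miR-363, which include seed relatives of miR-367, had 7 entries of either arm, of which 5 had a fold above 1 (median 0.07; 4 with upper-quartile scaling and 6 with library totals). Among these, miR-32-3p is an opposite arm without the miR-367 seed, and the counts of miR-92a-2-3p equal those of miR-92a-3p in every library, so the entries are not independent. Of the let-7 and miR-98 entries, which rise as stem cells differentiate, 7 of 9 had a fold above 1 (median 0.01), but 4 of 9 with median-ratio scaling and 2 of 9 with upper-quartile scaling. The differentiation-linked miR-145, miR-134 and miR-296 had 3 entries, all with a fold above 1 (median 0.11). At an unadjusted p under 0.05 these 5 lists had 0 entries, and DESeq2 called 0 of them.

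Likeness to miR-302a-5p in pattern over the 8 libraries was ranked among known microRNAs that are not members, so the nearest could not be members. Of the other tested members, only miR-302b-3p was compared. The measure was the root-mean-square difference of log2 levels, each centred on its own mean, over the 534 known non-member microRNAs tested. It takes in the difference between groups, so the nearest entries tend to change in the direction of miR-302a-5p, and it also takes in counting error. The 3 nearest were miR-1307-3p, miR-101-3p and miR-760, at 0.143, 0.144 and 0.145, where the median over all candidates was 0.387. Their log2 fold changes were −0.31, −0.26 and −0.26, each with an adjusted p of 0.402 in edgeR. DESeq2 called miR-101-3p (adjusted p = 0.0493) and miR-760 (adjusted p = 0.0379), but not miR-1307-3p. miR-302b-3p lay at 0.215 from miR-302a-5p, and 57 of the 534 others lay nearer. The 3 nearest averaged 4340, 885 and 253 CPM, where counting error is smaller than at the 33.4 CPM of miR-302b-3p.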

How the data were processed

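The submitters' processing notes name bcl2fastq 2.20, Trimmomatic 0.30, edgeR 3.4.6 and the build GRCh38, with no roles. Which aligner, counter and microRNA annotation were used is not given in the sources used here. Per the labels' protocols, total RNA came from a Qiagen kit and went into NEB small RNA libraries. The authors deposited raw counts per entry, and columns headed TPM that are CPM (within 0.223 CPM of the counts over their total), and a length per entry.

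The counts were tested in edgeR 4.0.16 (R 4.3.3) with the quasi-likelihood test, TMM scaling, a trended dispersion and Benjamini-Hochberg adjustment over 745 entries (539 known, 206 predicted), kept where the mean count reached 10 and at least 4 libraries were above 0. These held 98.1% to 99.9% of each library's counts. Two-sided exact permutation tests used log2(CPM + 0.5) and 70 arrangements, for 5 members. DESeq2 1.42.0 was an alternative. No replicate pair agreed within sampling noise (chi-square of 135 to 801 per degree of freedom). All members were named. From each related list the most abundant tested entry was to be named, and for likeness the 3 nearest known microRNAs to the most abundant member. Other marker lists (neural, endothelial, muscle, liver, mesenchymal and epithelial) had 0 entries past the threshold in edgeR, 2 at an unadjusted p under 0.05 and 1 in DESeq2, miR-122-5p. Members and lists were chosen with earlier results of these data known. The fit was also run on simulated counts with planted changes larger than those of miR-302a-5p and miR-302b-3p. That run does not show how often changes of their size would be called.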

Additional observations from a re-analysis of the deposited data

How the results depend on the processing

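Of the 8 alternatives beside leaving out libraries (median-ratio scaling, upper-quartile scaling, library totals, no filter, a mean count of at least 100, DESeq2, known microRNAs alone and the replicate block), DESeq2 changed a call: it counted 1 member past the threshold in place of 0, with miR-302b-3p at −0.37, and the cause was not tested. Leaving out 1 library left the count between 0 and 0. Over the libraries left out the log2 fold change ran from −0.41 to −0.33 for miR-302b-3p, −0.56 to −0.35 for miR-302a-5p, −0.50 to −0.19 for miR-372-3p, 0.02 to 0.30 for miR-302d-3p and −0.79 to 1.55 for miR-302c-5p, which reversed in 3 of 8. Only miR-302a-5p and miR-302b-3p passed the stricter filter, and DESeq2 gave miR-372-3p and miR-302c-5p no adjusted p. The labels do not say whether library numbers pair the libraries. Correlations of same-numbered libraries ran from −0.04 to 0.25, and 1 of 4 ASO libraries correlated best with its own number. Such correlations cannot decide whether same-numbered libraries were handled together. With the replicate block the log2 fold change was −0.36 for miR-302b-3p and −0.43 for miR-302a-5p, both with an adjusted p of 0.509, and the count of members past the threshold stayed at 0. The scalings moved the median of all entries by less than 0.1 on the log2 scale.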
